A study of Mus musculus with 11 samples.

Results

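Messenger RNA of the Myc network was examined in WT and Tet1/2/3 triple knockout (TKO) mouse embryonic stem cells (ESCs). The network was represented by 10 genes chosen by symbol (Myc, Mycn, Mycl1, Max, Mxd1, Mxd3, Mxd4, Mxi1, Mnt and Mga), of 23284 genes listed in each library, and all 10 were found in all 11 libraries. The libraries formed 5 groups. Ribodepleted total RNA was sequenced from WT and TKO ESCs that were not treated (0 h) or received 10 µg/ml α-amanitin for 4 h, with 2 libraries in each of these 4 groups. The toxin α-amanitin blocks RNA polymerase II. Polyadenylated RNA was sequenced from WT ESCs in 3 further libraries. All cells were grown on gelatin in serum with leukemia inhibitory factor. The TKO cells had been generated in earlier work and are described as lacking the 3 Tet dioxygenases, which oxidize 5-methylcytosine. The study describes the α-amanitin libraries as biological duplicates, without saying what was kept separate between them, and p-values measure the spread between these libraries.

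Myc proteins are transcription factors of the basic helix-loop-helix leucine zipper class. Myc, N-Myc (Mycn) and L-Myc (Mycl1) each pair with Max, bind E-box DNA and favour growth, ribosome production and cell division. Mxd1, Mxd3, Mxd4, Mxi1 and Mnt compete for Max and bring in Sin3 and histone deacetylase corepressors, and Mga joins Max in the variant Polycomb complex PRC1.6. In ESCs, Myc and N-Myc are known to sustain self-renewal, and Max with Mga is known to hold germline genes silent. Myc mRNA is a textbook example of a short-lived transcript.

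Recovered reads numbered between 72639837 and 82129168 in the polyA libraries and between 25507874 and 29781366 in the ribodepleted ones. The targeted genes were checked first. Tet1 was at 148 and 123 TPM (a length-corrected share of a library's transcripts) in WT and at 32.3 and 32.8 TPM in TKO at 0 h, and Tet2 was at 57.2 and 47.7 TPM against 8.32 and 7.79 TPM, so reads of both genes remained in TKO. Tet3 was low in all groups and not lower in TKO, at 1.46 and 1.47 TPM in untreated WT against 1.498 and 1.64 TPM in untreated TKO. The 6 ESC markers (Pou5f1, Sox2, Nanog, Zfp42, Esrrb and Klf4) were present in every library, with a summed level of 2203 to 2241 TPM in untreated WT against 1538 to 1551 TPM in untreated TKO. The 5 feeder fibroblast markers summed to 8.62 to 8.72 TPM against 12.4 to 12.9 TPM, and the 3 trophectoderm markers to 2.54 to 3.60 TPM and 32.4 to 35.6 TPM, in the same order. Of the latter, the keratin gene Krt7 made up most (30.9 and 34.5 TPM in TKO at 0 h), while Cdx2 stood at 1.24 and 1.06 TPM and Elf5 at 0.27 and 0.13 TPM. Endoderm, mesoderm and neural markers summed to at most 5.81 TPM in the ribodepleted libraries. Of the 3 neural markers, 1 was at 0 in the ribodepleted WT libraries. By limma, 5 of the 6 ESC markers were lower in untreated TKO at an adjusted p under 0.05, against 28.2% of all tested genes. Of the 6, 3 (50%) were also over 1.5-fold lower, against 5.43% of all genes, and log2 changes ran from -2.08 to 0.16. These values accompany every genotype difference below, and their part in it was not tested. In bulk RNA, fewer cells of a type and less RNA per cell cannot be told apart.

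The members of the network recognise the E-box, so its letters were looked up in promoters. Of 10 members, 9 had a promoter window in the RefSeq table (GRCm38.p6). Myc had none, so its promoter was not searched. Within the 250 bases before the transcription start, the canonical E-box CACGTG occurred in 2 members (Mnt and Mxd4) and in 6.02% of all 32851 windows. The variant CACGCG (or its reverse complement CGCGTG) occurred in Mycl1 and Mga and in 7.62% of all windows. Both strands were searched, and the 2 letter strings do not match each other. The 30 bases around each match are shown because they hold the element that the network proteins are known to bind, with the matched letters in capitals. Each full promoter window matched 1 place on its chromosome of mm9, and the positions are on that build.
Mnt (chr11:74644291-74644320, plus strand, motif from 123 to 118 bases before the start): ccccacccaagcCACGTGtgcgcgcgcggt
Mxd4 (chr5:34530561-34530590, minus strand, motif from 219 to 214 bases before the start): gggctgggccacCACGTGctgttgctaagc
Mycl1 (chr4:122673142-122673171, plus strand, motif from 20 to 15 bases before the start): ccaagccccgggCACGCGacgagatataaa
Mga (chr2:119722931-119722960, plus strand, motif from 21 to 16 bases before the start): agctggtaggagCGCGTGcgcagtgacgtg
The starts are those of RefSeq. In the GENCODE annotation Mycl1 begins further upstream, at position 122672895, so its match lies inside the gene there. The letters describe the windows and do not show binding.

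In untreated WT ESCs, Mycn was the most abundant member. It stood at 196 and 185 TPM, above 96.7% of all listed genes. Mga followed at 86.8 and 74.7 TPM, then Max, the shared partner, at 62.1 and 59.4 TPM, and Myc at 36.1 and 33.7 TPM. These 4 genes kept apart from each other and from the rest, with no overlap between neighbours in the order. Mxd3, the Mxd protein linked to S phase, came next at 10.7 and 13.2 TPM. Mnt (7.75 and 6.67 TPM), Mycl1 (6.81 and 6.99 TPM) and Mxi1 (6.74 and 6.94 TPM) overlapped in this order and did not differ beyond their spread. Mxd1 (2.38 and 1.95 TPM) and Mxd4 (1.76 and 2.17 TPM) were lowest and overlapped. Mxd4 rested on 20 to 37 recovered reads per ribodepleted library, and Mxd1 on 85 to 155. The same 4 genes led the order in the other ribodepleted groups, and the ranges of Mga and Max overlapped only in TKO at 4 h. In both TKO groups Mycl1 took the place that Mxd3 held in WT.

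**Figure D1:**
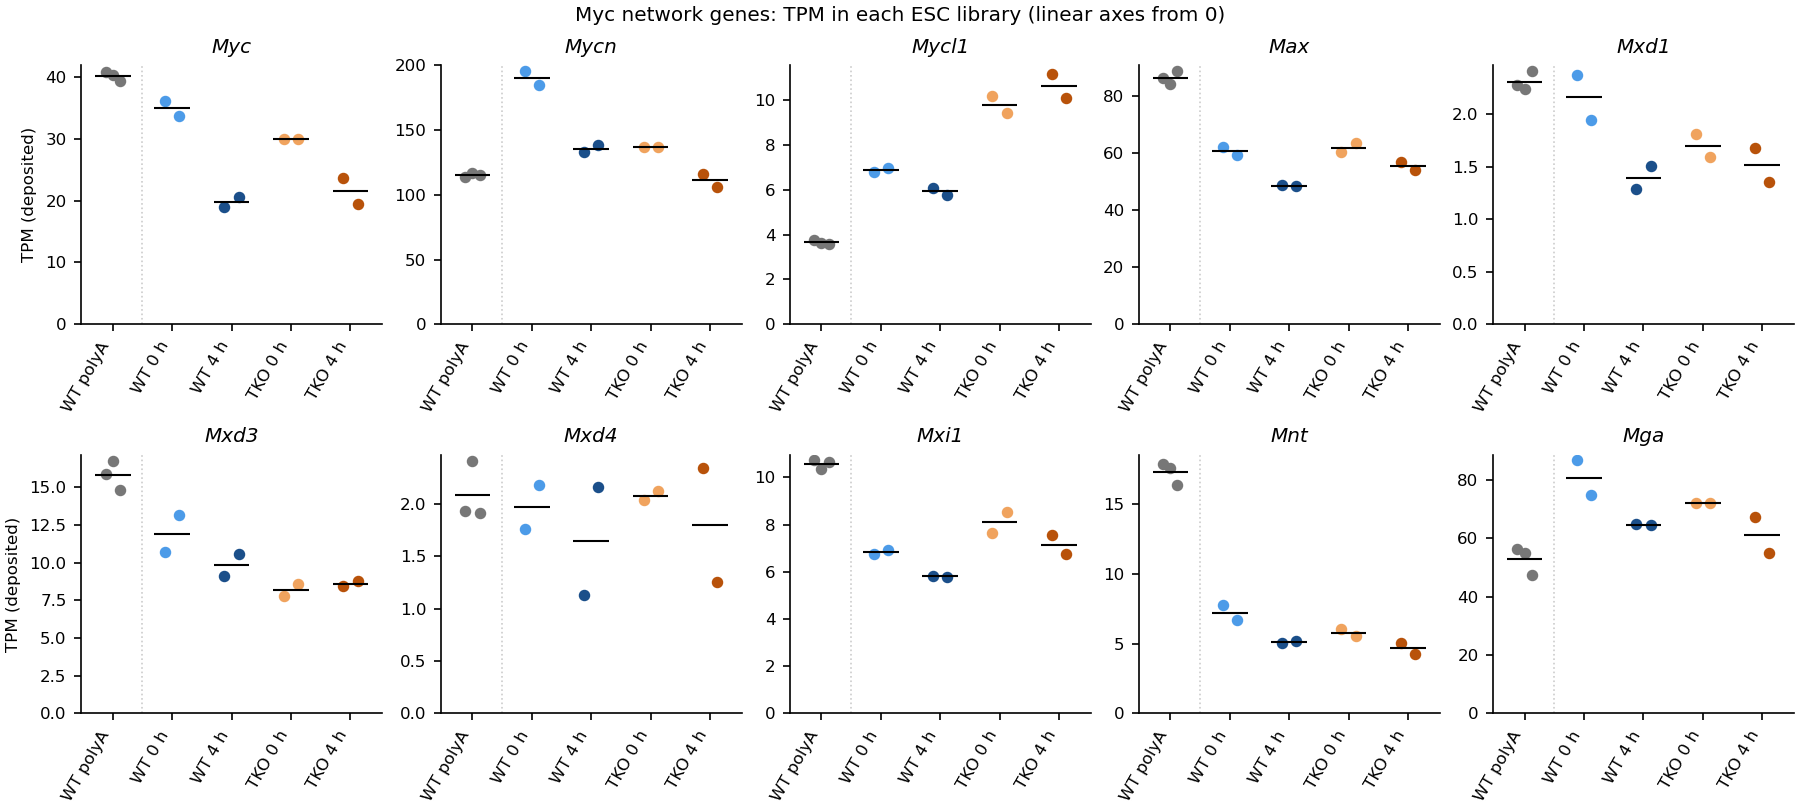
TPM of each of the 10 members (vertical axes, linear and starting at 0) in each library of the 5 groups (horizontal axes). Points are libraries and bars are group means, and the dotted line parts polyA from ribodepleted RNA. Mycn was between 185 and 196 TPM in WT at 0 h, above its values in all other groups, whereas Mycl1 was highest in the TKO groups.

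To ask how the network differs between the genotypes, TKO and WT ESCs were compared at 0 h. The number of TKO clones was not given, so other differences between the cell lines cannot be told apart from loss of Tet. Of the 10 members, 5 were lower in TKO (Myc, Mycn, Mxd3, Mnt and Mga) and 1 was higher (Mycl1) at an adjusted p under 0.05 by limma, which took 28.2% of 12467 tested genes as lower and 27.8% as higher. None of the 10 was also changed by over 1.5-fold on the scale tested, the limit for a call, against 15.9% of all genes. The median log2 change was -0.27 over the 10 members and -0.02 over all genes. All log2 changes are on the log2(scaled TPM + 1) scale, on which the change of low genes is understated.

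Among the activators, Mycn fell most. It was at 196 and 185 TPM in WT and at 137 and 137 TPM in TKO, so the groups did not overlap. In scaled TPM, 42.6% of all tested genes lay lower in TKO at 0 h without overlap, and 39.1% higher. The log2 change of Mycn was -0.57 (SE 0.04, limma adjusted p = 9.29e-06), equal to 1.48-fold. Myc was at 36.1 and 33.7 TPM in WT and at 29.9 and 29.99 TPM in TKO, without overlap, and changed by -0.31 (SE 0.07, limma adjusted p = 0.0042). With deposited TPM and no further scaling, Myc no longer passed (log2 change -0.21, adjusted p = 0.076, range over its alternatives 0.00049 to 0.076). Mycl1 moved in the other direction. It rose from 6.81 and 6.99 TPM to 10.2 and 9.43 TPM, which was 0.36 on the log2 scale (SE 0.08, limma adjusted p = 0.0036). The 3 activator genes therefore did not move together.

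Max was nearly level. It was at 62.1 and 59.4 TPM in WT and at 60.5 and 63.6 TPM in TKO, with overlapping ranges, and its log2 change was -0.07 (95% CI -0.17 to 0.04, limma adjusted p = 0.24). With no scaling the sign turned, to 0.03. The interval leaves out any change near 1.5-fold.

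Of the Max-binding repressors, Mxd3 and Mnt fell. Mxd3 went from 10.7 and 13.2 TPM to 7.80 and 8.61 TPM, without overlap, like 42.6% of all tested genes in scaled TPM. It changed by -0.57 on the log2 scale (SE 0.11, limma adjusted p = 0.0028). On that scale, like Mycn, it lay just inside the 1.5-fold limit (0.58). In scaled TPM without the added 1, the TKO mean was 0.64 of the WT mean for Mxd3, past 1.5-fold, and 0.67 for Mycn, inside it. The log2 change of Mxd3 rested on the WT libraries, being -0.74 without WT 0 h replicate 1 and -0.41 without WT 0 h replicate 2. Mxd3 (chr13:55426529-55431119, minus strand) shares 104 of its 2081 exonic bases with Prelid1 on the opposite strand, and the strand setting of the counting was not given. Prelid1 itself was at 331 and 338 TPM in untreated WT against 283 and 301 TPM in untreated TKO, and its part in the Mxd3 value was not tested. Mnt, known as the broadly expressed antagonist of Myc, went from 7.75 and 6.67 TPM to 6.03 and 5.57 TPM, a difference of -0.35 on that scale (SE 0.09, limma adjusted p = 0.0076, 0.059 with no scaling). It no longer passed in 3 of 18 alternatives, among them those without TKO 0 h replicate 2 (-0.30) and without WT 0 h replicate 1 (-0.29). Mxd1 was at 2.38 and 1.95 TPM in WT and at 1.82 and 1.59 TPM in TKO (log2 change -0.28, limma adjusted p = 0.057), and passed in 3 of 17 alternatives. Mxi1 (log2 change 0.13, 95% CI -0.05 to 0.30) and Mxd4 (-0.01, 95% CI -0.49 to 0.47) did not pass. Mxi1 shares 194 of its 5619 exonic bases with Gm10197 on the opposite strand, with the same doubt about strand. At the depth of Mxd4 a change of the size seen for Mnt was not detectable.

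Mga, the largest protein of the network, went from 86.8 and 74.7 TPM to 72.0 and 72.1 TPM. The WT libraries lay apart from each other by more than WT replicate 2 lay from TKO. The log2 change was -0.25 (SE 0.08, limma adjusted p = 0.019), and it no longer passed in 5 of 18 alternatives, with adjusted p from 0.0018 to 0.19.

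**Figure D2:**
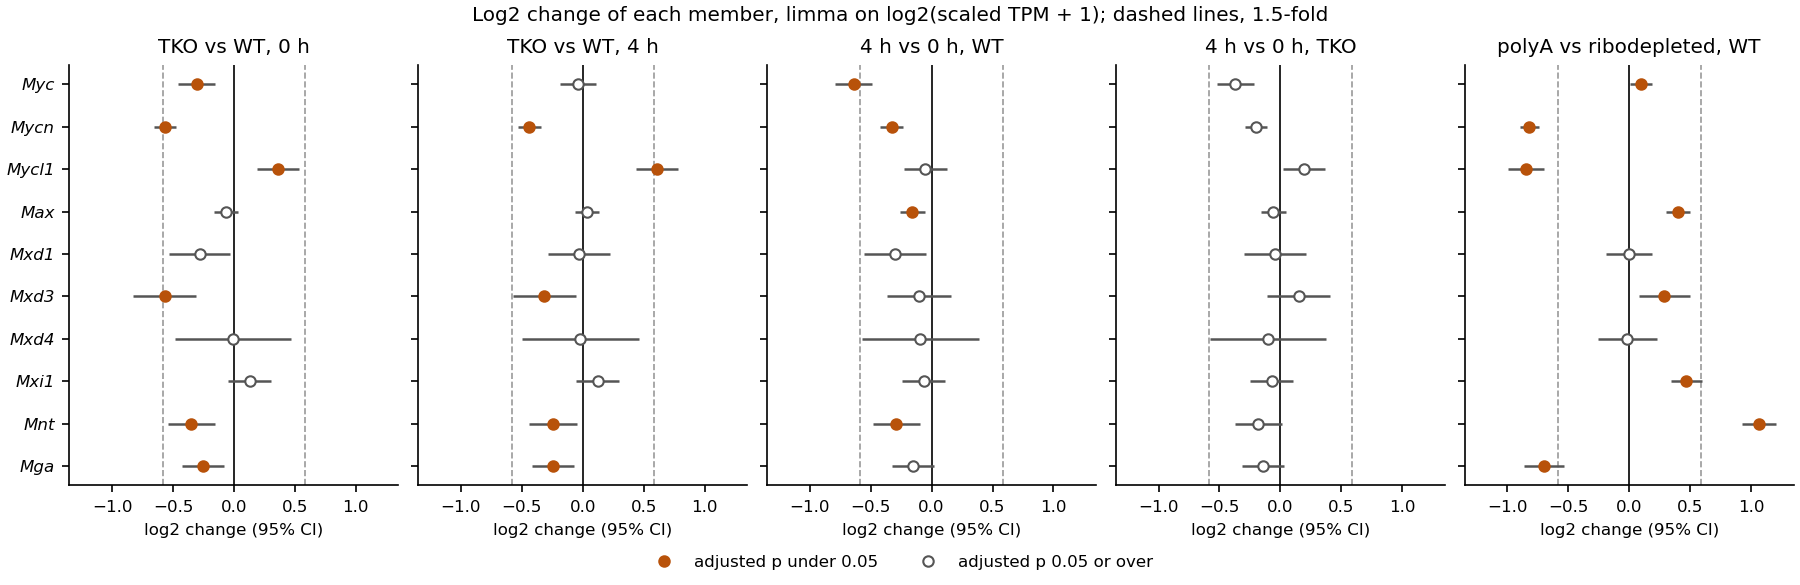
Log2 change of each member (horizontal axis, log2 of scaled TPM + 1) with its 95% confidence interval in 5 comparisons. Filled points passed an adjusted p of 0.05 in limma, and dashed lines mark 1.5-fold. Mycl1 is the only member that passed to the right of 0 in TKO vs WT, and in WT at 4 h vs 0 h Myc alone lies past 1.5-fold.

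The genotypes were compared again after 4 h of α-amanitin. Here 1 member was called, Mycl1, which was higher in TKO, against 11.0% of all genes called higher. It was at 6.10 and 5.77 TPM in WT and at 11.2 and 10.1 TPM in TKO, with a gap between the groups. In scaled TPM, 38.4% of all tested genes were likewise higher in TKO without overlap. The log2 change of Mycl1 was 0.61 (SE 0.08, limma adjusted p = 0.00018), equal to 1.53-fold. It fell below 1.5-fold when WT 4 h replicate 2 was left out (0.55) and after quantile normalisation (0.48), with an adjusted p of at most 0.0024 in every alternative.

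Another 4 members passed as lower in TKO at 4 h, against 30.3% of all genes. Mycn was at 133 and 138 TPM in WT and at 116 and 106 TPM in TKO, and changed by -0.44 (SE 0.04, limma adjusted p = 3.38e-05). Mxd3 (-0.32), Mnt (-0.24) and Mga (-0.24) were lower by less, with limma adjusted p of 0.040, 0.035 and 0.021. Not all alternatives let these genes pass. Mxd3 and Mnt passed in 9 of 18 alternatives and Mga in 14. Myc passed at 0 h but not here, and the difference between these 2 comparisons did not pass either (limma adjusted p = 0.66). At 4 h Myc was at 19.0 and 20.5 TPM in WT and 23.6 and 19.4 TPM in TKO, which overlapped. Its log2 change was -0.04 (95% CI -0.19 to 0.11). Max was at 48.8 and 48.5 TPM in WT and at 57.1 and 54.2 TPM in TKO, yet its change after scaling was 0.04 (95% CI -0.07 to 0.14). With deposited TPM it was 0.19 and passed (limma adjusted p = 0.013, range over its alternatives 0.013 to 0.99993). The median of all genes moved from -0.01 with size factors to 0.14 with deposited TPM in this comparison. The 2 TKO libraries at 4 h differed more than any other ribodepleted pair, with a chi-square per degree of freedom of 7.40 against 1.53 to 4.32.

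To ask which members decline when transcription is inhibited, 4 h was compared with 0 h in WT ESCs. TPM is relative within a library, so a decline shared by all transcripts cannot be seen in it. Myc was the only member called, against 2.01% of all genes called lower. It was at 36.1 and 33.7 TPM at 0 h and at 19.0 and 20.5 TPM at 4 h. The groups did not overlap, and in scaled TPM 32.5% of all tested genes also lay lower at 4 h without overlap. Myc changed by -0.64 on the log2 scale (SE 0.07, limma adjusted p = 0.0022), equal to 1.56-fold. In recovered reads this was 1212 and 1166 against 681 and 715. With a pseudocount of 5 TPM the change was -0.56 and inside 1.5-fold, and its adjusted p was at most 0.026 in every alternative.

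A further 3 members passed without reaching 1.5-fold, so that 4 of 10 were lower, against 15.8% of all genes lower and 21.9% higher. Mycn fell from 196 and 185 TPM to 133 and 138 TPM (log2 change -0.33, SE 0.04, limma adjusted p = 0.0036). Mnt fell from 7.75 and 6.67 TPM to 5.03 and 5.19 TPM (-0.29, limma adjusted p = 0.029), and Max from 62.1 and 59.4 TPM to 48.8 and 48.5 TPM (-0.16, limma adjusted p = 0.025). Mnt and Max each passed in 13 of 18 alternatives, with adjusted p up to 0.16 and 0.15. No member had a log2 change above 0, while 45.9% of all genes were below 0, and the median was -0.16 over the members against 0.03 over all genes. Mycl1 (-0.05, 95% CI -0.22 to 0.12) and Mxi1 (-0.07, 95% CI -0.24 to 0.11) were near 0, and each turned above 0 after quantile normalisation.

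In TKO ESCs, the same comparison called no member, and no member passed the adjusted p, which 0.265% of all genes did. Myc was at 29.9 and 29.99 TPM at 0 h and at 23.6 and 19.4 TPM at 4 h. These groups did not overlap, yet the 2 libraries at 4 h were far apart, and the log2 change was -0.37 (SE 0.07, unadjusted p = 0.00038, limma adjusted p = 0.066). In scaled TPM, 26.0% of all tested genes lay lower at 4 h without overlap. Mycn went from 137 and 137 TPM to 116 and 106 TPM (-0.20, unadjusted p = 0.00089, limma adjusted p = 0.084). Leaving out TKO 4 h replicate 1 let both pass, with limma adjusted p of 0.0082 for Myc and 0.015 for Mycn. Over all alternatives, Myc passed in 3 of 18 (adjusted p 0.0062 to 0.36) and Mycn in 4 of 18 (0.015 to 0.39). Mycl1 was at 10.2 and 9.43 TPM before and 11.2 and 10.1 TPM after (0.20, limma adjusted p = 0.17).

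Whether the response to α-amanitin differed between the genotypes was tested by the difference of the 2 changes. No gene of 12467 passed the adjusted p (0%), with 938 at an unadjusted p under 0.05, and the smallest adjusted p was 0.53. For Myc, the TKO change exceeded the WT change by 0.27 (95% CI 0.05 to 0.48, unadjusted p = 0.020, limma adjusted p = 0.66). The corresponding difference was 0.25 for Mycl1 (95% CI 0.00084 to 0.49, limma adjusted p = 0.66) and 0.13 for Mycn (95% CI -0.0029 to 0.26, limma adjusted p = 0.67). A different response of Myc in TKO was thus not shown. The comparisons of genotype and of time share libraries, so their values are not independent of each other.

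The make-up of the family was described within each library, since a ratio of TPM does not depend on the scaling between libraries. In WT at 0 h, Mycn gave 82.0 ± 0.028% of the summed Mycn, Myc and Mycl1 TPM, Myc 15.0 ± 0.15% and Mycl1 2.98 ± 0.18% (SD, n = 2). In WT at 4 h, the Myc share was 12.2 ± 0.32% and the Mycn share 84.1 ± 0.063% (SD, n = 2); the Myc share was lower in both libraries than in either at 0 h. TKO at 0 h had a larger share of Mycl1 (5.55 ± 0.28%) and of Myc (16.9 ± 0.12%), and a smaller one of Mycn (77.5 ± 0.16%; SD, n = 2). By TKO at 4 h, Mycl1 had reached 7.42 ± 0.029% and Myc was at 14.9 ± 0.92% (SD, n = 2). No group overlapped another in its Mycl1 share among the ribodepleted libraries. These shares are a description, and no test was run on them.

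The family sum was also set against Max. In WT it was 3.82 ± 0.033 times the Max TPM at 0 h and 3.31 ± 0.11 times at 4 h (SD, n = 2). In TKO it was 2.85 ± 0.11 and 2.58 ± 0.10 times (SD, n = 2). The 4 groups did not overlap in this ratio. The summed repressors Mxd1, Mxd3, Mxd4, Mxi1 and Mnt stood at 0.50 ± 0.034 of Max in WT and 0.42 ± 0.0024 in TKO at 0 h (SD, n = 2). Relative to the Myc family they stood at 0.13 ± 0.010 in WT and 0.15 ± 0.0050 in TKO. The family sum went from 232 to 177 TPM and the repressor sum from 30.1 to 25.9 TPM. These are ratios of mRNA and say nothing of protein.

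**Figure D3:**
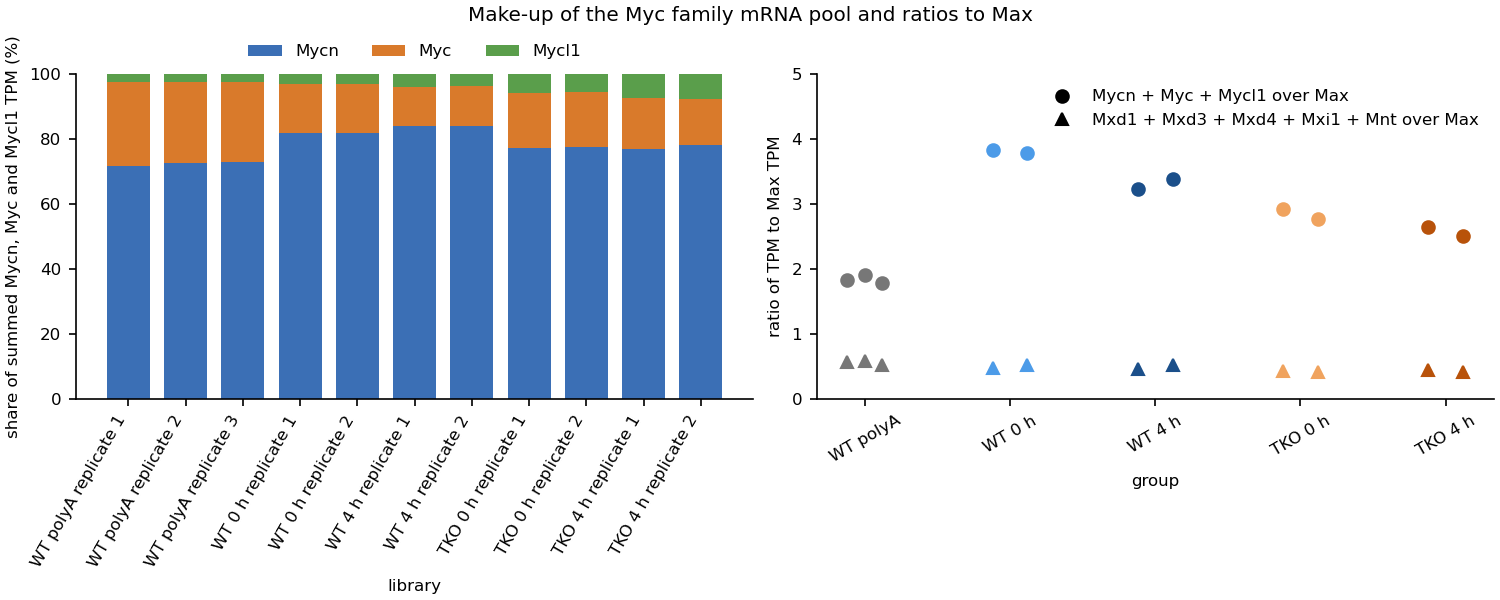
Left, share of Mycn, Myc and Mycl1 in their summed TPM (vertical axis, %) in each of the 11 libraries. Right, the summed Myc family (circles) and the summed Mxd, Mxi1 and Mnt genes (triangles) relative to Max TPM, by group, 1 point per library. The circles step from 3.79 to 3.84 in WT at 0 h down to 2.51 to 2.65 in TKO at 4 h, and lie at 1.78 to 1.91 in polyA RNA.

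PolyA and ribodepleted RNA of untreated WT ESCs were compared with a fit of their own. RNA selection and experiment differ together here and cannot be told apart. In this comparison 1 member was called higher in polyA RNA, against 18.7% of 12481 genes, and 3 were called lower, against 16.4%. Mnt was at 17.9, 17.6 and 16.3 TPM in polyA RNA and at 7.75 and 6.67 TPM in ribodepleted RNA, which is 1.06 on the log2 scale (SE 0.06, limma adjusted p = 6.51e-07). Mycn was at 114, 117 and 115 TPM against 196 and 185 TPM (-0.82, limma adjusted p = 1.00e-07). Mycl1 was at 3.77, 3.64 and 3.56 TPM against 6.81 and 6.99 TPM (-0.85, limma adjusted p = 3.23e-06), and Mga at 56.3, 55.0 and 47.6 TPM against 86.8 and 74.7 TPM (-0.70, limma adjusted p = 2.26e-05).

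Max, Mxi1, Mxd3 and Myc also passed as higher in polyA RNA without reaching 1.5-fold. By adjusted p alone, 40.1% of all genes passed as higher and 40.8% as lower. Max was at 86.3, 84.3 and 88.9 TPM (0.40) and took the second place in the order, ahead of Mga. Myc was at 40.8, 40.3 and 39.3 TPM (0.10, limma adjusted p = 0.045), and no longer passed in 8 of 14 alternatives, with adjusted p up to 0.21. Its share of the family was 25.2 ± 0.47% (SD, n = 3), above that in all ribodepleted libraries. Shares and ratios of different genes should therefore be read within 1 RNA selection.

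Genes of proteins that work with the network were taken from lists written from general knowledge. In TKO vs WT at 0 h, 8 of the 11 Myc cofactors passed, 2 higher and 6 lower, where 27.8% of all genes were higher and 28.2% lower, and 15.9% were called. The median log2 change of the cofactors was -0.23, against -0.02 over all genes, and -0.10 against -0.03 after quantile normalisation. Ruvbl1, a helicase of the TIP60 and INO80 complexes, was the one called, at 274 and 266 TPM in WT and 155 and 158 TPM in TKO (-0.88, SE 0.06, limma adjusted p = 6.42e-06). Among the 9 corepressors of Mxd and Mnt, 1 was higher and 4 were lower, with none called and changes between -0.47 and 0.32, against the same shares of all genes (27.8% higher, 28.2% lower, 15.9% called). The 9 partners of Mga in PRC1.6 held 2 that were higher and 4 that were lower, not far from the shares of all genes (27.8% and 28.2%). Of all genes 15.9% were called, against 22.2% of the 9 partners. Of these, Rybp was called lower, from 55.9 and 49.8 TPM to 35.8 and 36.4 TPM (-0.63, limma adjusted p = 9.32e-05), and its paralog Yaf2 was called higher, from 4.81 and 4.81 TPM to 8.11 and 8.87 TPM (0.62, limma adjusted p = 0.0022). With deposited TPM no gene of this list was called lower, and after quantile normalisation none was called higher. Rybp and Yaf2 are known as alternative subunits of the variant Polycomb complexes.

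The 12 genes of Myc protein turnover held 2 that were higher and 6 that were lower, against 27.8% and 28.2% of all genes. With deposited TPM 3 were lower and after quantile normalisation 4, and under each of these 1 gene was also called higher. Usp28, a deubiquitinase known to protect Myc from degradation, was called lower, from 88.5 and 77.2 TPM to 51.1 and 51.6 TPM (-0.77, SE 0.05, limma adjusted p = 8.34e-06). The turnover list had 8.33% of its genes called, against 15.9% of all genes. Of the MLX arm, which pairs with a partner related to Max, 2 of 3 genes were tested and 1 was higher, with none called. None of these lists had a called gene in WT at 4 h vs 0 h, where 2.1% of all genes were called. Cofactors, corepressors and PRC1.6 partners held 5, 6 and 5 genes that were higher there and none lower, where 21.9% of all genes were higher and 15.8% lower, but with deposited TPM these counts were 1, 2 and 0 higher and 1, 2 and 0 lower. Turnover genes were 4 higher and 4 lower, and 0 higher and 5 lower with deposited TPM. Without scaling, the median of all genes was itself lower in this comparison, at -0.11 against 0.03 with size factors.

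The list of 68 reported Myc targets, mostly genes of nucleolar function and ribosome production, was written from general knowledge. At 0 h, 39 were lower and 5 higher in TKO, against 28.2% and 27.8% of all genes. Of the list, 4 genes (5.88%) were called, against 15.9% of all genes. The median log2 change was -0.18, against -0.02 over all genes. With no scaling the counts were 28 lower and 12 higher with a median of -0.09, against 0.07 over all genes. After quantile normalisation they were 32 and 15 with a median of -0.11, against -0.03 over all genes. None of the called genes is known for a nucleolar role. Of the 4, Ldha ranked lowest by size of change and was named after its values were seen. Ccnd2, a D-type cyclin, was at 4.98 and 4.58 TPM in WT and 1.77 and 1.82 TPM in TKO (-1.11, limma adjusted p = 1.16e-05), and Ldha, the lactate dehydrogenase subunit, at 1113 and 1100 TPM against 740.3 and 737 TPM (-0.68, limma adjusted p = 5.16e-05). Cdkn1a and Cdkn2b, cell cycle inhibitors that Myc is known to repress, were higher. Cdkn1a went from 5.12 and 4.89 TPM to 13.0 and 12.8 TPM (1.13, limma adjusted p = 1.31e-05), and Cdkn2b from 4.00 and 3.78 TPM to 11.1 and 10.3 TPM (1.16, limma adjusted p = 0.00048).

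After 4 h of α-amanitin in WT, 21.9% of all genes were higher, 15.8% lower and 2.1% called, with a median of 0.03. Of the 68 targets, 33 were higher and 4 lower, none of them called, with a median of 0.16. This split depended on the scaling. It was 7 higher and 11 lower with deposited TPM, and 6 and 9 after quantile normalisation. The all-gene median moved as well, to -0.11 without scaling and to 0.04 once quantile-normalised. Relative to it, the targets' median lay 0.13 higher with size factors, 0.11 higher without scaling and 0.0052 higher once quantile-normalised. The targets were therefore above all genes under size factors and without scaling, but nearly level with them under quantile normalisation. No direction that holds under every scaling can be given for the targets under the inhibitor. Myc itself was lower under all 3 scalings.

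**Figure D4:**
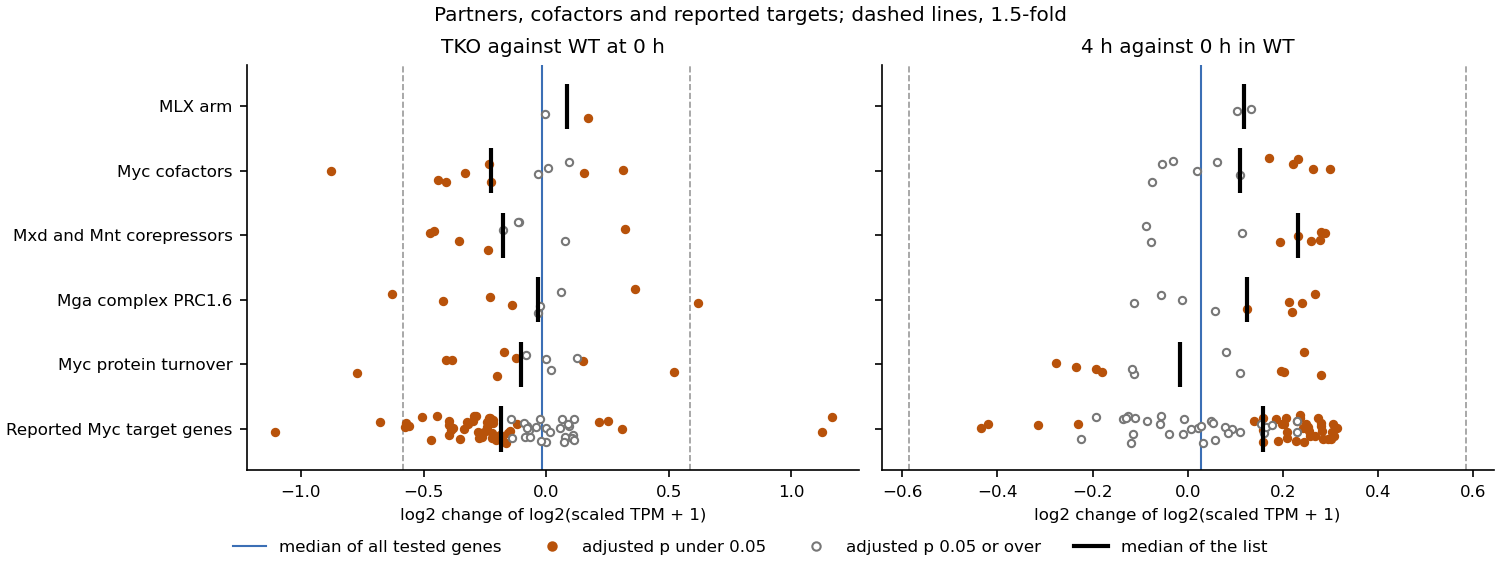
Log2 change (horizontal axes) of each tested gene of 6 lists (rows) in TKO vs WT at 0 h and in WT at 4 h vs 0 h. Filled points passed an adjusted p of 0.05, black bars are list medians, the blue line is the median of all tested genes and dashed lines mark 1.5-fold. In TKO the target genes lie mostly left of the blue line, with Cdkn1a and Cdkn2b at the far right (1.13 and 1.16).

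Genes that followed Myc and Mycn across the 8 ribodepleted libraries were ranked by Pearson's r of log2(scaled TPM + 1), as a description. The points are few and fall into 4 groups, so high values are common: 173 genes exceeded 0.95 with Myc and 325 with Mycn. Nearest to Myc were Rg9mtd1 (r = 0.996), Zswim1 (r = 0.994) and Slc20a1 (r = 0.993). For Mycn they were Rbm4 (r = 0.996), Depdc1b (r = 0.995) and Nfkbid (r = 0.995). Nfkbid was at a mean scaled TPM of 11.6 in WT and 5.16 in TKO at 0 h, and at 7.81 and 3.89 at 4 h, an order of groups that Mycn shared.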

How the data were processed

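RNA-seq of 11 mouse ESC libraries was used. As the study's methods describe, the authors dropped low-complexity reads with AfterQC and rRNA and tRNA reads with Bowtie2, trimmed adapters with Trimmomatic, aligned with STAR to mm9, counted RefSeq genes with HTSeq and deposited TPM per gene. Tool versions and the HTSeq strand setting were not given in the sources used here. TPM values were scaled by median-of-ratios size factors, and log2(scaled TPM + 1) was tested with limma 3.58.1 in R 4.3.3 (two-sided, variance trend, Benjamini-Hochberg over all tested genes) for genes whose scaled TPM averaged over 1. The 8 ribodepleted libraries formed 1 fit and the 5 untreated WT libraries another. A call needed an adjusted p under 0.05 and a change over 1.5-fold. The study itself tested raw counts, which were not used here. Ratios of TPM between libraries gave whole reads for 100% of genes (tolerance 0.01). A factor shared by all libraries of a gene cannot be recovered this way, so these reads are lower bounds. They gave the depth and an alternative with limma voom chosen after seeing the data. Replicates differed by more than sampling noise.

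The members and lists were chosen with earlier results of these data known. Named were all members, the 3 largest called genes per list in TKO vs WT at 0 h and in WT at 4 h vs 0 h, and the 3 genes most correlated with Myc and with Mycn. Gene positions came from GENCODE M1 and promoter windows from RefSeq (GRCm38.p6). The fit was tested on simulated data. Protein sequences were not used here. Alternatives changed the scaling, pseudocount, filter, variance trend, replicate block, fold limit and libraries.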

Additional observations from a re-analysis of the deposited data

Results flagged for a closer look

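Max was noted because its scaled values separated the genotypes in opposite directions at 0 h and 4 h, while the deposited TPM overlapped at 0 h. In scaled TPM, 42.6% of all tested genes lay lower in TKO without overlap at 0 h, and 38.4% higher at 4 h. After scaling, the log2 change of Max in TKO vs WT was -0.065 at 0 h and 0.035 at 4 h, and neither passed the adjusted p in limma. The difference of the 2 changes was 0.10 (unadjusted p = 0.15, limma adjusted p = 0.69). With deposited TPM the values were 0.029 at 0 h and 0.19 at 4 h (limma adjusted p = 0.013 at 4 h), so both lay above 0 and the opposite directions were lost.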

How the results depend on the processing

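With no fold limit, the members that passed numbered 6 in TKO vs WT at 0 h, 5 at 4 h, 4 in WT at 4 h vs 0 h and 8 in polyA vs ribodepleted RNA. Of all tested genes, 56.1%, 59.4%, 37.7% and 81% passed in these comparisons, in the same order. For TKO vs WT at 0 h, 1 member (Mxd3) in place of 0 was called after quantile normalisation, with a pseudocount of 0.1 TPM and with voom, and 0 to 1 were called without 1 library: Mxd3 without TKO 0 h replicate 2 or WT 0 h replicate 1, and Mycn without WT 0 h replicate 2. For TKO vs WT at 4 h, 0 in place of 1 were called after quantile normalisation and with a pseudocount of 5 TPM, and 0 to 1 without 1 library (0 without WT 4 h replicate 2). In WT at 4 h vs 0 h, 0 in place of 1 were called with a pseudocount of 5 TPM. The counts in TKO at 4 h vs 0 h and for the difference of responses stayed at 0 in every alternative.

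With deposited TPM, log2 changes turned for Max (0.029) and Mxd4 (0.056) in TKO vs WT at 0 h, for Myc (0.11), Mxd1 (0.066) and Mxd4 (0.080) at 4 h, and for Mxd1 (0.070) and Mxd4 (0.054) in polyA RNA. Quantile normalisation turned Mxi1 in TKO vs WT at 4 h (-0.024) and Mycl1 (0.047) and Mxi1 (0.034) in WT at 4 h vs 0 h, and a fit of only the 4 libraries compared turned Mxd4 at 0 h (0.0019). Leaving out 1 library turned Mxd4 in TKO vs WT at 0 h (-0.13 to 0.11) and, at 4 h, Myc (-0.13 to 0.057), Max (-5.02e-06 to 0.053), Mxd1 (-0.092 to 0.040) and Mxd4 (-0.31 to 0.26). In WT at 4 h vs 0 h it turned Mycl1 (-0.099 to 0.011), Mxd3 (-0.27 to 0.061) and Mxd4 (-0.37 to 0.19), in TKO Mxd1 (-0.11 to 0.020) and Mxd4 (-0.35 to 0.15), and in polyA RNA Mxd1 (-0.089 to 0.073) and Mxd4 (-0.15 to 0.099). None of these passed the adjusted p in the fit reported. The cause was not tested.

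Deviations of same-numbered ribodepleted replicates were little correlated over genes (-0.04 to 0.12). Whether replicate numbers pair the samples was not given, and these correlations cannot decide it. The replicate block left every count of called members as it was (0, 1, 1, 0, 0 and 4), and turned Mxd4 in polyA RNA (0.017). At 20 to 37 reads per ribodepleted library, depth limits Mxd4.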
